A study of Homo sapiens with 12 samples.

Results

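The genes described here are 10 genes of growth factor and cytokine signalling in myeloid cells: CSF1, which encodes a ligand, and 9 genes that encode receptors, CSF1R, FLT3, CSF2RA, CSF2RB, CSF3R, IL7R, IL4R, IL10RA and IFNGR1. They were taken from a list of symbols matched to the array's annotation, and all 10 were among the 19775 genes measured. Each gene is represented by its brightest single-gene probe set, the one with the highest mean over the 12 arrays. The samples are RNA from U937, an established cell line of human myelomonocytic leukaemia, in 4 groups of 3 arrays. These were U937_EVI1 cells treated with TPA, U937_vec cells treated with TPA, U937_EVI1 cells treated with EtOH and U937_vec cells treated with EtOH, the exposure being 24 h in all groups and the TPA concentration 50 ng/ml. U937_EVI1 cells carry an EVI1 expression vector and are called EVI1-labelled cells, and U937_vec cells carry the empty vector. TPA, a phorbol ester, switches on protein kinase C and pushes these cells toward a macrophage-like state, and EtOH (ethanol) is its solvent. EVI1, a transcription factor with zinc fingers, is made from the MECOM locus and is linked to poor-risk myeloid leukaemia. Replicates are described as biological, and no source used here says whether the cells were transduced separately for each, so p-values between populations measure the spread between these samples only.

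CSF1, also called M-CSF, is the growth factor that monocytes and macrophages need for survival, and CSF1R is its receptor tyrosine kinase. FLT3 is a related receptor kinase of haematopoietic progenitors. GM-CSF is sensed by a specific alpha chain, CSF2RA, and a beta chain, CSF2RB, that the interleukin 3 and interleukin 5 receptors also use, while CSF3R is the receptor for G-CSF, the growth factor of neutrophils. The remaining receptors sense interleukin 7, interleukin 4, interleukin 10 and interferon gamma. Apart from the receptor kinases they have no enzyme of their own and signal through JAK kinases bound to their tails and through STAT transcription factors.

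Values are log2 probe set signals, so a difference of 1 is a doubling of signal, and levels of different genes are not compared. Correlations between arrays of the same group were 0.991 to 0.997. Detection calls were not used. The lowest of the array medians was 5.07, and a level at or under it cannot be taken as above background. The 5 probe sets that name MECOM read 2.59 to 3.32 on all arrays and did not differ between the populations (smallest adjusted p 0.118 in TPA and 0.901 in ethanol), so expression from the vector is not shown by these arrays, and whether these probe sets cover the part that the vector expresses was not examined. Of 10 measured monocyte and macrophage markers 6 lay above 5.07 in all 4 groups. LYZ, lysozyme, averaged 12.86 in EVI1-labelled and 12.87 in empty vector cells in ethanol, and was lower with TPA, at 11.23 and 11.58. The Fc receptor gene FCGR1A stayed at or below 3.41 in every group. The gap in signal between the 3' and 5' control probe sets of ACTB, which reflects how intact and evenly labelled the RNA is, was 1.23 to 1.29 in EVI1-labelled and 1.17 to 1.64 in empty vector cells with TPA, against 1.73 to 2.01 and 1.72 to 1.85 in their ethanol controls (two-sided p = 0.00216 by an exact permutation test over the 12 arrays). The same gap for GAPDH was 0.30 to 0.41 in EVI1-labelled and 0.36 to 0.61 in empty vector cells with TPA. In ethanol it was 0.44 to 0.62 and 0.39 to 0.80 (p = 0.0476 by the same permutation test), so it overlapped in empty vector cells. Both gaps were on average smaller with TPA, and their part in the TPA results was not tested. In a culture measured in bulk, fewer cells carrying a transcript and less of it per cell cannot be told apart.

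TPA raised most of these genes in both populations. In EVI1-labelled cells 8 of 10 passed the test, 7 higher and CSF3R lower, against 40.0% of all genes (19.4% higher and 20.6% lower). In empty vector cells 9 of 10 passed, 8 higher and CSF3R lower, against 43.2% of all genes (20.7% higher and 22.5% lower). The median log2 difference over the 10 genes was 1.01 in EVI1-labelled and 1.52 in empty vector cells, where the median over all genes was 0.00 and 0.02. Groups did not overlap for 8 genes in EVI1-labelled cells, against 46.6% of all genes, and for 9 in empty vector cells, against 50.3%. The changes ran from a fall of CSF3R to the rise of IL7R, which dwarfed the others, and FLT3 did not pass in either population. Of 10 monocyte and macrophage markers 4 rose and 2 fell with TPA in EVI1-labelled cells, and 6 rose and 2 fell in empty vector cells, and their part in these counts was not tested.

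**Figure D1:**
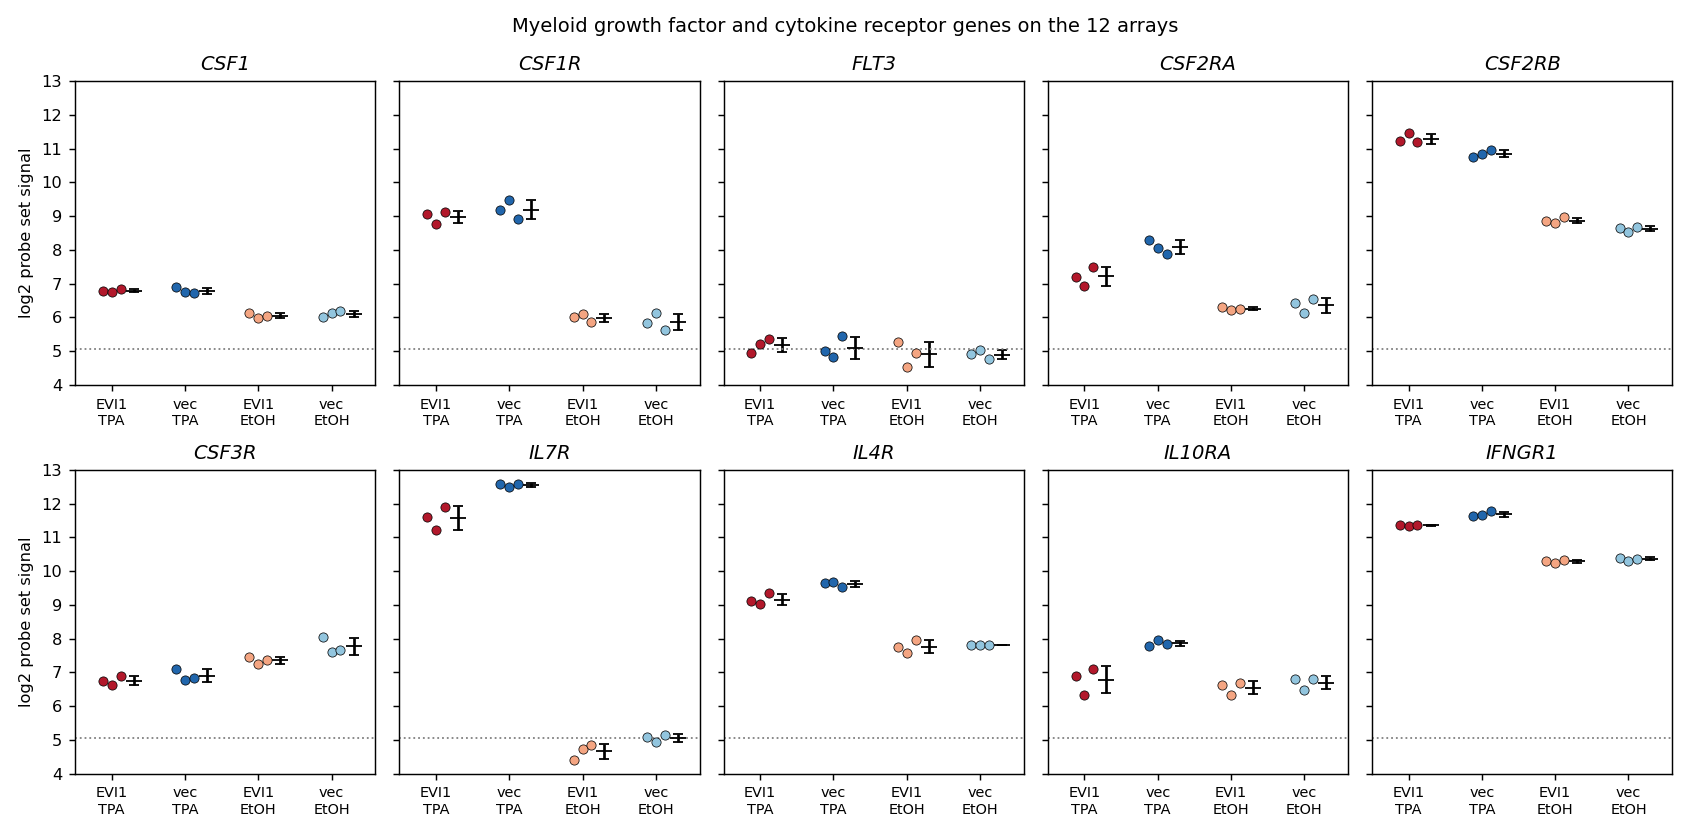
Log2 probe set signal of the 10 genes, 1 panel per gene, with the 3 arrays of each group as points and the group mean ± SD (n = 3) beside them. The dotted line marks the lowest array median, 5.07. IL7R lies near that line in ethanol and between 11.21 and 12.58 with TPA, while FLT3 stays near the line in all 4 groups.

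CSF1, the ligand, rose slightly with TPA in both populations. Its signal was 6.79, 6.74 and 6.84 in EVI1-labelled cells with TPA, against 6.13, 5.99 and 6.03 in ethanol. In empty vector cells it was 6.90, 6.74 and 6.72 with TPA, against 6.02, 6.12 and 6.20 in ethanol. All 6 TPA arrays lay above all 6 ethanol arrays, and the populations overlapped in both treatments. The log2 difference was 0.74 ± 0.08 (SE) in EVI1-labelled cells (limma adjusted p = 3.82e-06) and 0.67 ± 0.08 in empty vector cells (adjusted p = 8.54e-06). The difference between these responses was 0.07 ± 0.12 (adjusted p = 0.888). The rise rests on the brightest probe set. Of 3 dimmer CSF1 probe sets, 1 was higher in EVI1-labelled cells (0.32, adjusted p = 0.0475) and none was in empty vector cells, and with all probe sets of the gene averaged the differences were 0.28 and 0.29. The nearest genes in pattern over the 4 group means were TSC22D2 and NCKAP1L, with root mean square differences of 0.0177 and 0.0199 on the log2 scale.

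CSF1R, the receptor for CSF1, had the second-largest rise of the set. Its signal was 9.06, 8.76 and 9.11 in EVI1-labelled cells with TPA, against 6.0, 6.09 and 5.87 in ethanol, a difference of 2.99 ± 0.15 (adjusted p = 1.58e-09). Empty vector cells read 9.17, 9.48 and 8.92 with TPA, against 5.83, 6.12 and 5.64 in ethanol, a difference of 3.33 ± 0.15 (adjusted p = 4.05e-10). The treatments were separated by more than 2 log2 units on every array, and the populations overlapped in both treatments. Ordered by rise, it stood at rank 179 of 19775 genes in EVI1-labelled cells and at rank 172 in empty vector cells. The genes nearest in pattern were SCARB2, a lysosomal membrane protein gene, at a root mean square difference of 0.0589, and the zinc finger factor gene KLF6 at 0.0796.

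CSF1R (chr5:150053295-150113365, minus strand, GRCh38) has 2 annotated start sites 26811 bases apart, and which of them the single CSF1R probe set reads was not examined. As background, the upstream site is known from trophoblasts and the downstream one is the macrophage promoter, on which the ETS factor PU.1 acts. Both windows, from 250 bases before to 50 bases after the start site, are shown because CSF1R is a main TPA-raised gene and the windows hold different motifs. They are RefSeq sequences at chr5:150113316-150113615 for the upstream site and chr5:150086505-150086804 for the downstream site, both on the minus strand and written 5' to 3'. Capitals mark matches to the AP-1 motif TGANTCA or to the PU.1 and ETS core GAGGAA on either strand.
CSF1R upstream: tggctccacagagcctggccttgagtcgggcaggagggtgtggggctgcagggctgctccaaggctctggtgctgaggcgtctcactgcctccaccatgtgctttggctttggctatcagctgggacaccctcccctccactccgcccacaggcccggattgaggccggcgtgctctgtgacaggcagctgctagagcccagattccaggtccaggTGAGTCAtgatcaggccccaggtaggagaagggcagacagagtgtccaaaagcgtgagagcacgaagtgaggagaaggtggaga
CSF1R downstream: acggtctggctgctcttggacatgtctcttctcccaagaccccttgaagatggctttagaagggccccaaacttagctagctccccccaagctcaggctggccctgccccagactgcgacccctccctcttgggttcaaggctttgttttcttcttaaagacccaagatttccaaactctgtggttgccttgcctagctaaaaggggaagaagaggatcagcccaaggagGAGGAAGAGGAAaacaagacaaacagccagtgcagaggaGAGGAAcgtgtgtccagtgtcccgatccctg
With the start site counted as 0, the upstream window holds 1 AP-1 match, at -34 to -28. The downstream window holds 3 matches to GAGGAA, of which the pair at -20 to -15 and -14 to -9 is side by side and the last lies at 19 to 24.

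FLT3, the other receptor kinase, read close to the lowest array median in all 4 groups. It read 4.95, 5.21 and 5.36 in EVI1-labelled cells with TPA, against 5.27, 4.53 and 4.95 in ethanol. In empty vector cells the signal was 5.0, 4.82 and 5.45 with TPA, against 4.91, 5.03 and 4.76 in ethanol. The groups overlapped in every comparison. The TPA difference was 0.26 with a 95% interval from -0.15 to 0.66 in EVI1-labelled cells (adjusted p = 0.338), and 0.19 with an interval from -0.21 to 0.59 in empty vector cells (adjusted p = 0.474). At these signals a fall in FLT3, or a rise within these intervals, could not be detected.

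The chains of the GM-CSF receptor both rose with TPA, and in TPA-treated cells they differed between the populations in opposite directions. CSF2RA, the alpha chain, read 7.21, 6.93 and 7.50 in EVI1-labelled cells with TPA, against 6.30, 6.22 and 6.25 in ethanol. Empty vector cells read 8.30, 8.05 and 7.88 with TPA, against 6.44, 6.12 and 6.54 in ethanol. The 3 TPA arrays of EVI1-labelled cells thus lay above all ethanol arrays and below all TPA arrays of empty vector cells. CSF2RA rose by 0.96 ± 0.15 in EVI1-labelled cells (adjusted p = 9.28e-05) and by 1.71 ± 0.15 in empty vector cells (adjusted p = 2.6e-07). In TPA it was lower in EVI1-labelled than in empty vector cells, at -0.86 ± 0.15 (adjusted p = 0.00167).

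CSF2RB, the shared beta chain, read 11.21, 11.46 and 11.19 in EVI1-labelled cells with TPA, against 8.86, 8.79 and 8.96 in ethanol. Signals in empty vector cells were 10.76, 10.83 and 10.96 with TPA, against 8.65, 8.54 and 8.69 in ethanol. CSF2RB was the single member with higher signal in EVI1-labelled than in empty vector cells on every array in both treatments. It rose by 2.42 ± 0.09 in EVI1-labelled cells (adjusted p = 1.37e-10) and by 2.22 ± 0.09 in empty vector cells (adjusted p = 2.18e-10). The difference between the populations was 0.44 ± 0.09 in TPA (adjusted p = 0.00786) and 0.24 ± 0.09 in ethanol, where it did not pass (adjusted p = 0.26). Fitted on the 6 TPA arrays alone, the difference in TPA missed the threshold (adjusted p = 0.0516).

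Other probe sets of the alpha chain moved in the same direction. The 3 further CSF2RA probe sets rose with TPA by 0.53 to 0.81 in EVI1-labelled cells and by 0.69 to 1.33 in empty vector cells, each past the threshold over all probe sets. In TPA 2 of the 3 were lower in EVI1-labelled cells, at -0.71 and -0.70, and the dimmest stood at -0.33 (adjusted p = 0.195). The chosen probe set carries the suffix x_at, which marks probes that can match other sequences too. CREM and FHOD1 came nearest to CSF2RA in pattern (root mean square differences 0.0218 and 0.0466), and the integrin gene ITGAV and HDAC9 came nearest to CSF2RB (0.0368 and 0.0531). The window around the CSF2RA start site (chrX:1268564-1268863, plus strand, GRCh38) is shown because this gene differed most between populations among the growth factor receptors.
CSF2RA: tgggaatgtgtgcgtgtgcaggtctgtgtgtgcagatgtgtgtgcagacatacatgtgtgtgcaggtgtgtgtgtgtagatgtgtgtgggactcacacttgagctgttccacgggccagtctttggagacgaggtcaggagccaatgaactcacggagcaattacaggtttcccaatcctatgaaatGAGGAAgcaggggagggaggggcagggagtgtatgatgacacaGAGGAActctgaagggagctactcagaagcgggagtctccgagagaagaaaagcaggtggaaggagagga
It holds 2 matches to GAGGAA, at -63 to -58 and -20 to -15, and none to the AP-1 motif. CSF1 and CSF2RB had no promoter window in the table used.

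CSF3R, the G-CSF receptor gene, was the member that fell with TPA. It read 6.74, 6.64 and 6.89 in EVI1-labelled cells with TPA, against 7.46, 7.26 and 7.37 in ethanol. Empty vector cells read 7.11, 6.77 and 6.84 with TPA, against 8.06, 7.59 and 7.67 in ethanol. All TPA arrays lay below all ethanol arrays. CSF3R fell by 0.61 on the log2 scale in EVI1-labelled cells (SE 0.13, adjusted p = 0.00134) and fell by 0.87 in empty vector cells (SE 0.13, adjusted p = 5.45e-05). In ethanol all 3 EVI1-labelled arrays lay below all 3 empty vector arrays, with a difference of -0.41 ± 0.13 that did not pass (adjusted p = 0.129). The second CSF3R probe set fell in empty vector cells (-0.72, adjusted p = 0.000581) and stood at -0.14 in EVI1-labelled cells, where it did not pass (adjusted p = 0.537). Averaging both probe sets gave -0.37 in EVI1-labelled cells. Among 5 neutrophil markers 2 rose and 1 fell with TPA in EVI1-labelled cells, and 3 rose and 1 fell in empty vector cells. Only CXCR2 lay above 5.07 in all 4 groups. It averaged 6.80 in EVI1-labelled and 6.68 in empty vector cells with TPA, against 7.52 and 7.52 in ethanol. The mean signal of the 5 markers was 4.26 to 4.73 in EVI1-labelled and 4.50 to 4.84 in empty vector cells with TPA, against 4.03 to 4.08 and 3.99 to 4.03 in ethanol. These means lie under 5.07, and the part of the markers in the fall of CSF3R was not tested. NPEPL1 and ZNRD2 came nearest to CSF3R in pattern, at 0.0301 and 0.0332.

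IL7R had by far the largest change. It encodes the alpha chain of the interleukin 7 receptor, which lymphocytes depend on and which also pairs in the receptor for TSLP. Its signal was 11.61, 11.21 and 11.91 in EVI1-labelled cells with TPA, against 4.42, 4.73 and 4.85 in ethanol. In empty vector cells the signal was 12.57, 12.49 and 12.58 with TPA, against 5.08, 4.93 and 5.15 in ethanol. With TPA the gene was thus bright in both populations, and in ethanol both group means, 4.67 and 5.05, lay below the lowest array median. The difference was 6.91 ± 0.15 in EVI1-labelled cells (adjusted p = 1.37e-12) and 7.49 ± 0.15 in empty vector cells (adjusted p = 5.07e-13), which placed it at rank 11 and rank 7 of the 19775 genes. Because the ethanol levels are not shown to be above background, the size of both rises is uncertain.

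The IL7R levels with TPA differed between the populations. Every EVI1-labelled array lay below every empty vector array, and the difference was -0.97 ± 0.15 (adjusted p = 0.000896). A dimmer IL7R probe set averaged 9.24 in EVI1-labelled and 10.54 in empty vector cells with TPA (-1.30, adjusted p = 0.00233), against 4.75 and 4.90 in ethanol. In ethanol the difference of the main probe set was -0.39 ± 0.15 at background-level signals and did not pass (adjusted p = 0.269). PHLDA1 and the complement receptor gene C5AR1 came nearest in pattern, with root mean square differences of 0.177 and 0.203. Of 11 lymphoid markers measured, none rose and 1 fell with TPA in EVI1-labelled cells, and 1 rose and 2 fell in empty vector cells. Their mean signal was 4.87 to 4.99 in EVI1-labelled and 4.74 to 4.82 in empty vector cells with TPA, against 5.07 to 5.22 and 4.95 to 5.08 in ethanol, and their part in the IL7R result was not tested. Of the T cell markers CD2, CD3E and CD3G lay below 5.07 in all groups and CD3D averaged 5.54 and 5.44 with TPA, against 5.47 and 5.34 in ethanol. PAX5 averaged 5.54 in EVI1-labelled and 4.86 in empty vector cells with TPA, against 8.23 and 7.33 in ethanol. NKG7 averaged 6.51 and 6.28 with TPA, against 7.01 and 6.91 in ethanol. CD79A and CD79B also lay above 5.07 in all groups. The promoter window of IL7R (chr5:35856641-35856940, plus strand, GRCh38) is shown because no member changed more.
IL7R: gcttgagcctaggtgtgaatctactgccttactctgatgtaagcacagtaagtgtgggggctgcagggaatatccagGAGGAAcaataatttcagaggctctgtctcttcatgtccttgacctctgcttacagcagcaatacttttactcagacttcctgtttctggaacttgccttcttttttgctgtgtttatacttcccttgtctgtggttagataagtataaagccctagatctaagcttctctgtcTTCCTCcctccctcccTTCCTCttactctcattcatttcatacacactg
It holds 3 matches to GAGGAA, 1 on the plus strand at -173 to -168 and 2 on the minus strand at 1 to 6 and 17 to 22, and none to the AP-1 motif.

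IL4R, the interleukin 4 receptor alpha chain, rose in both populations. It read 9.10, 9.02 and 9.34 in EVI1-labelled cells with TPA, against 7.75, 7.58 and 7.95 in ethanol, a difference of 1.39 ± 0.11 (adjusted p = 7.91e-08). Empty vector cells read 9.65, 9.68 and 9.53 with TPA, against 7.81 on all 3 arrays in ethanol, a difference of 1.81 ± 0.11 (adjusted p = 4.63e-09). With TPA the EVI1-labelled arrays lay below the empty vector arrays without overlap, at -0.47 ± 0.11 (adjusted p = 0.0105). Without replicate 2 of EVI1-labelled cells in TPA this call was lost (-0.40, adjusted p = 0.0525). EDN1, the endothelin 1 gene, and ZC3H6 came nearest in pattern, at 0.0265 and 0.0385.

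IL10RA, the ligand-binding chain of the interleukin 10 receptor, was the member whose TPA change passed the test in one population and not in the other. It read 6.89, 6.34 and 7.11 in EVI1-labelled cells with TPA, against 6.62, 6.32 and 6.68 in ethanol. Signals in empty vector cells were 7.79, 7.95 and 7.83 with TPA, against 6.81, 6.49 and 6.80 in ethanol. The 3 empty vector TPA arrays stood above all 9 others, while in EVI1-labelled cells the treatments overlapped. The rise was 1.16 ± 0.17 in empty vector cells (adjusted p = 4.31e-05). In EVI1-labelled cells the difference was 0.24 with a 95% interval from -0.12 to 0.60 (adjusted p = 0.312), and it passed without replicate 2 of EVI1-labelled cells in TPA (0.46, adjusted p = 0.0139), while without replicate 3 it was 0.075 (adjusted p = 0.788). The responses differed by -0.92 ± 0.24, which did not pass (adjusted p = 0.0697). In TPA the populations differed by -1.08 ± 0.17 (adjusted p = 0.000837), the widest gap among the 10 genes, at rank 158 from the lowest over all genes. ZNF536 and ZNF469 came nearest in pattern, at 0.0623 and 0.0643. The window of an annotated IL10RA start site (chr11:117989695-117989994, plus strand, GRCh38) is shown because of this gap. This window lies inside the annotated gene, chr11:117986394-118003037, and not at its 5' end, for which no window was searched.
IL10RA: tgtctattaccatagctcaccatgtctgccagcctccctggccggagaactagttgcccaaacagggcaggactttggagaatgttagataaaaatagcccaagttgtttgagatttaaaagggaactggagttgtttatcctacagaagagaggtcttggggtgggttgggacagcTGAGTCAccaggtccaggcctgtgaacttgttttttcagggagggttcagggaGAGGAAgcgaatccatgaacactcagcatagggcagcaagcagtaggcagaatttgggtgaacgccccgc
It holds 1 AP-1 match at -73 to -67 and 1 match to GAGGAA at -20 to -15.

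IFNGR1, the ligand-binding chain of the interferon gamma receptor, rose in both populations and varied little within groups, with SDs of 0.02 to 0.07. It read 11.37, 11.34 and 11.35 in EVI1-labelled cells with TPA, against 10.31, 10.24 and 10.33 in ethanol, a difference of 1.06 ± 0.07 (adjusted p = 2.73e-08). Empty vector cells read 11.63, 11.66 and 11.77 with TPA, against 10.40, 10.31 and 10.37 in ethanol, a difference of 1.33 ± 0.07 (adjusted p = 2.35e-09). In TPA the populations did not overlap and differed by -0.33 ± 0.07 (adjusted p = 0.00802). On the 6 TPA arrays alone that call was lost (adjusted p = 0.0644). A second bright probe set differed by -0.46 (adjusted p = 0.00851), and the dimmest, averaging 3.62 over the 12 arrays, did not pass (-0.67, adjusted p = 0.104). For TPA in EVI1-labelled cells not every further IFNGR1 probe set passed. Over the members, 6 of 10 further probe sets passed there in the direction of the main one, as did 7 of 10 in empty vector cells. AKIRIN2 and PLEKHM3 came nearest in pattern, at 0.0146 and 0.0287.

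**Figure D2:**
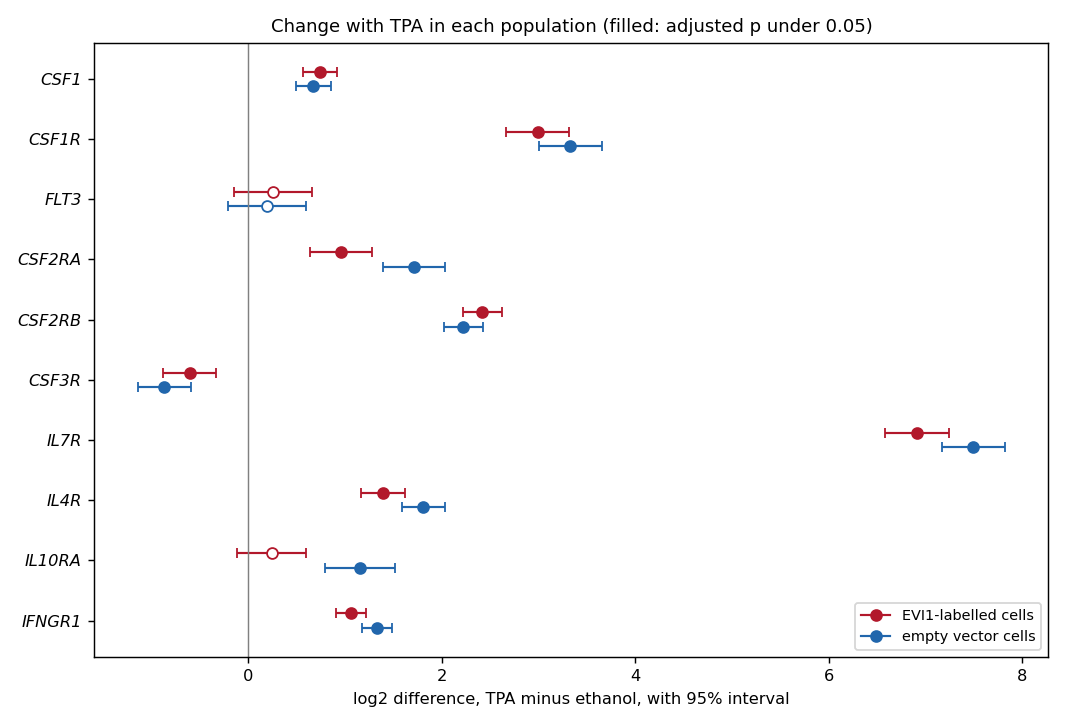
Log2 difference between TPA and ethanol for each gene in EVI1-labelled cells (red) and empty vector cells (blue), with 95% intervals from the fit and filled points where the adjusted p is under 0.05. IL7R stands at 6.91 and 7.49, CSF3R alone is below 0, and the EVI1-labelled point of IL10RA, 0.24, is open.

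In TPA-treated cells 6 of the 10 genes differed between the populations, against 11.2% of all genes, and for the same 6 the groups did not overlap, against 22.4%. Of these 5 were lower in EVI1-labelled cells, against 5.30% of all genes, and CSF2RB was higher, against 5.90% of all genes. The 5 lower genes were IL10RA, IL7R, CSF2RA, IL4R and IFNGR1, from -1.08 to -0.33. CSF1, CSF1R, CSF3R and FLT3 did not pass, with 95% intervals from -0.17 to 0.18, -0.54 to 0.11, -0.43 to 0.13 and -0.32 to 0.49. The median difference over the 10 genes was -0.27, where that over all genes was 0.01. Monocyte and macrophage markers moved the same way: 5 of 10 were lower in EVI1-labelled cells in TPA and none was higher. Their mean signal was 7.12 to 7.48 on the EVI1-labelled arrays and 7.88 to 8.19 on the empty vector arrays, and their part in the receptor differences was not tested.

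In ethanol none of the 10 genes passed limma's test between the populations, against 3.27% of all genes (1.32% higher and 1.95% lower), and 3 had an unadjusted p under 0.05, against 12.7% of all genes. These 3 were CSF2RB, CSF3R and IL7R, and they were also the 3 whose groups did not overlap. The groups did not overlap for 22.0% of all genes. The differences ran from -0.41 for CSF3R to 0.24 for CSF2RB, with a median of -0.07, against 0.01 for all genes. Taken without sign, the median difference of the 10 genes between populations was 0.39 in TPA and 0.12 in ethanol, where that of all genes was 0.11 and 0.09.

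**Figure D3:**
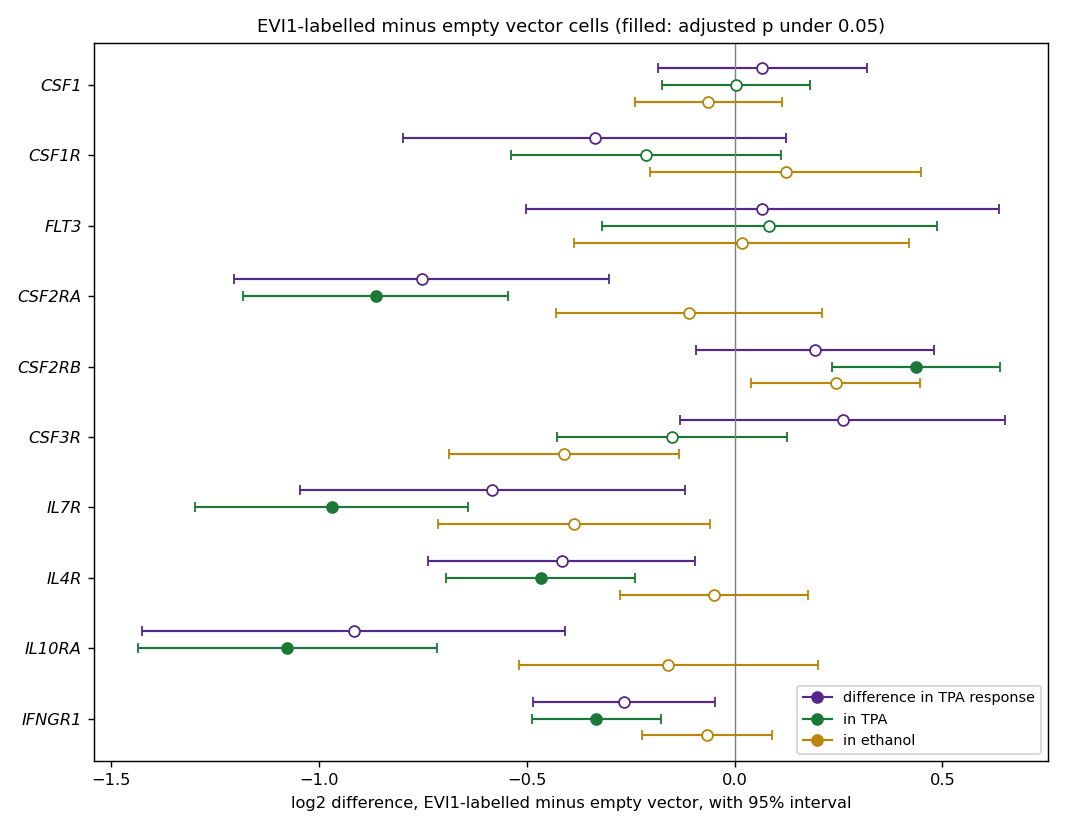
Log2 difference between EVI1-labelled and empty vector cells for each gene in TPA (green) and in ethanol (ochre), and the difference between their TPA responses (purple), with 95% intervals and filled points where the adjusted p is under 0.05. In TPA 6 points are filled, 5 of them below 0, and no point is filled in ethanol or for the difference in response.

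The test of the difference in TPA response, EVI1-labelled minus empty vector, called none of the 10 genes in limma, against 1.98% of all genes (0.936% higher and 1.05% lower). At an unadjusted p under 0.05 there were 5, against 12.5% of all genes, and each of them was a smaller rise in EVI1-labelled cells. These were IL10RA at -0.92 ± 0.24 (adjusted p = 0.0697), CSF2RA at -0.75 ± 0.21 (adjusted p = 0.097), IL7R at -0.58 ± 0.21 (adjusted p = 0.242), IL4R at -0.42 ± 0.15 (adjusted p = 0.225) and IFNGR1 at -0.27 ± 0.10 (adjusted p = 0.268). Without replicate 3 of EVI1-labelled cells in TPA the first 3 passed, with adjusted p of 0.0161, 0.0231 and 0.0465. With other single arrays left out their adjusted p rose as far as 0.170, 0.207 and 0.444. With all probe sets of a gene averaged, IL7R passed (-0.87, adjusted p = 0.0224). With the replicate number added to the fit IL10RA passed, as given in the closing section. For CSF1R the difference was -0.34 with a 95% interval from -0.80 to 0.12, and for CSF2RB it was 0.19 with an interval from -0.09 to 0.48.

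On the EVI1-labelled arrays and on the empty vector arrays in ethanol, 1 replicate was lowest for most of the 10 genes. Among the TPA-treated EVI1-labelled cells replicate 2 gave the lowest value for 8 of the 10 genes, against 33.1% of all genes, and replicate 3 the highest for 8, against 44.9% of all genes. CSF2RB was an exception, being highest in replicate 2. Among EVI1-labelled cells in ethanol replicate 2 was the lowest for 8 genes as well, against 37.7% of all genes. Among empty vector cells in ethanol replicate 2 was the lowest for 6 genes, against 34.3% of all genes, with IL4R tied. The median SD of the 10 genes was 0.18 in EVI1-labelled and 0.10 in empty vector cells with TPA, against 0.11 and 0.12 in ethanol, and IL10RA in TPA-treated EVI1-labelled cells had the widest of all at 0.40.

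The partner chains of these receptors largely rose with TPA too. Their list of 8 genes also held KIT, the stem cell factor receptor kinase, which is a receptor of its own and not a partner chain. Of the 8 genes 5 rose in each population, and the 1 that fell was KIT. Over all genes 19.4% rose and 20.6% fell in EVI1-labelled cells, and 20.7% rose and 22.5% fell in empty vector cells. These shares also stand beside the TPA counts of the lists below. IFNGR2, the second chain of the interferon gamma receptor, rose by 2.39 ± 0.11 in EVI1-labelled cells (adjusted p = 7.03e-10) and by 2.91 ± 0.11 in empty vector cells (adjusted p = 8.1e-11). IL10RB, the second chain of the interleukin 10 receptor, rose by 1.60 ± 0.10 and 1.74 ± 0.10 in the same order. IL10RB thus rose in both populations, and its difference between them in TPA, -0.18, did not pass (adjusted p = 0.32). KIT fell, with means of 4.11 in EVI1-labelled and 3.92 in empty vector cells with TPA, against 6.16 and 5.06 in ethanol. In ethanol KIT was higher in EVI1-labelled cells by 1.10 ± 0.14 (adjusted p = 0.000521). Of the KIT means only that of EVI1-labelled cells in ethanol lay above 5.07, so the size of these differences is uncertain. IL13RA1, which pairs with IL4R, was higher in EVI1-labelled cells in TPA by 0.60 ± 0.12 (adjusted p = 0.005), the opposite direction to IL4R. IFNGR2 was lower in EVI1-labelled cells in TPA at -0.41 ± 0.11 (adjusted p = 0.0291), as its partner IFNGR1 was. That IFNGR2 call was lost in 6 of 20 alternatives (adjusted p up to 0.13), namely without replicate 1 or 2 of EVI1-labelled cells in TPA, without any 1 replicate of empty vector cells in TPA, and on the 6 TPA arrays alone.

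Of 11 measured ligand genes 1 rose with TPA in EVI1-labelled cells, and 1 rose and 1 fell in empty vector cells. The one that fell was KITLG (-0.37, adjusted p = 0.0472), and it lost the call in 13 of 19 alternatives (adjusted p up to 0.234), among them 8 that left out 1 array. The riser was IL10, the anti-inflammatory cytokine sensed by IL10RA, at 2.60 ± 0.23 in EVI1-labelled cells (adjusted p = 4.01e-07) and 3.43 ± 0.23 in empty vector cells (adjusted p = 1.97e-08), with ethanol means of 3.41 and 3.31. Both ethanol means are under the line for background, which leaves the size of the rises uncertain. IL10 in TPA averaged 6.01 ± 0.54 in EVI1-labelled and 6.74 ± 0.40 in empty vector cells (SD, n = 3), a difference that did not pass. In EVI1-labelled cells 8 of the 11 ligands with TPA and 9 with ethanol had means at or below 5.07, as had 7 and 8 in empty vector cells, and the interleukin 7 gene IL7 was among them in all groups. KITLG, the ligand of KIT, was lower in EVI1-labelled than in empty vector cells, at -1.33 ± 0.14 in TPA and -1.49 ± 0.14 in ethanol (adjusted p = 4.59e-05 and 5.82e-05), with EVI1-labelled means below 5.07, so their size is uncertain as well. With all KITLG probe sets averaged these differences were -0.32 and -0.40.

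JAK and STAT genes rose in 6 of 9 cases in each population and none fell. STAT6, the factor used by the interleukin 4 receptor, rose by 1.44 ± 0.09 in EVI1-labelled and 1.71 ± 0.09 in empty vector cells (adjusted p = 1.89e-08 and 2.71e-09). STAT3, used by the interleukin 10 and G-CSF receptors, rose by 1.10 ± 0.09 in EVI1-labelled cells, or 0.66 with its probe sets averaged. The kinase gene TYK2 rose by 0.97 ± 0.10 in empty vector cells. Feedback inhibitors were mixed. Of 14 genes 3 were higher and 5 lower in EVI1-labelled cells, against 19.4% and 20.6% of all genes. In empty vector cells 2 were higher and 4 lower, against 20.7% and 22.5% of all genes. PTPN6, the phosphatase SHP-1, rose by 1.44 ± 0.12 and 0.81 ± 0.12, while SOCS2, which restrains JAK-STAT signalling, was at -2.30 ± 0.13 and -1.79 ± 0.13. In TPA PTPN6 was higher in EVI1-labelled cells by 0.79 ± 0.12 and SOCS2 was lower at -0.67 ± 0.13 (adjusted p = 0.000536 and 0.00435). With its probe sets averaged SOCS2 stood at -1.52 for TPA in EVI1-labelled cells and at -0.37 between the populations in TPA.

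Genes that STAT factors are known to induce rose in 5 of 7 cases with 1 lower in each population. BCL6, a transcriptional repressor, rose by 3.76 ± 0.08 in EVI1-labelled and 3.87 ± 0.08 in empty vector cells. The cytokine gene OSM rose by 1.25 ± 0.14 in EVI1-labelled and 3.21 ± 0.14 in empty vector cells, and the kinase gene PIM1 by 1.69 ± 0.09 and 2.75 ± 0.09. In TPA 4 of the 7 were lower in EVI1-labelled cells and 1 was higher, against 5.30% and 5.90% of all genes. OSM stood at -2.07 ± 0.14 and the survival gene BCL2L1 at -0.86 ± 0.08 (adjusted p = 2.06e-06 and 2.25e-05). In ethanol 2 of the 7 were higher in EVI1-labelled cells and 1 was lower, against 1.32% and 1.95% of all genes. There PIM1 stood at 0.62 ± 0.09 and BCL2L1 at -0.45 ± 0.08 (adjusted p = 0.00118 and 0.00805). The BCL2L1 call in ethanol was lost in 1 of 20 alternatives. With all OSM probe sets averaged its rise in empty vector cells was 1.98 and its difference in TPA -1.28.

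**Figure D4:**
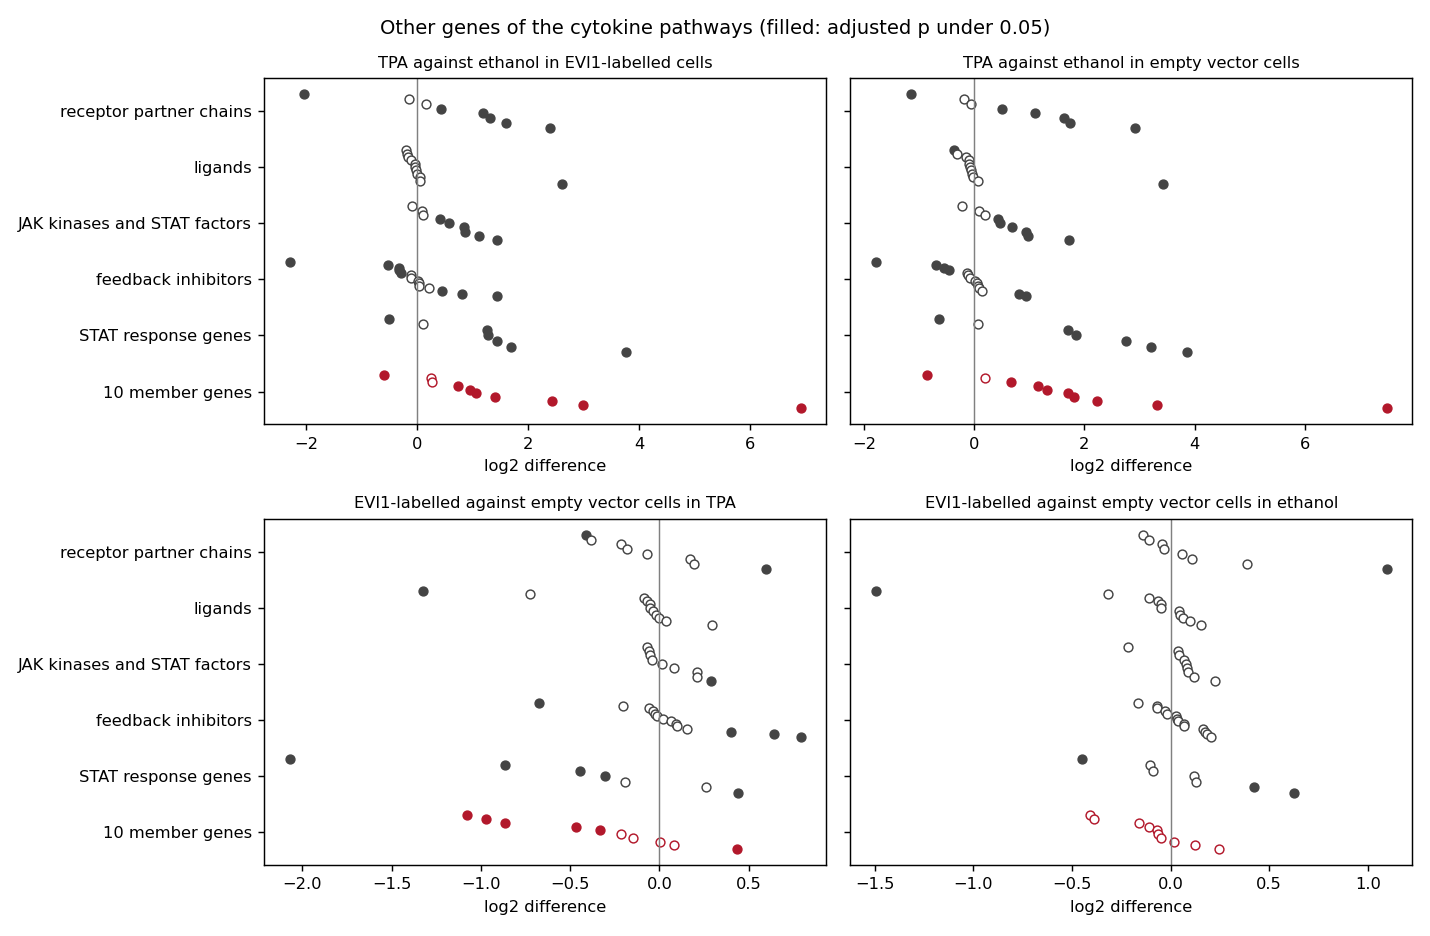
Log2 differences of the other pathway genes (grey) and the 10 member genes (red) in 4 comparisons, 1 point per gene and 1 row per gene list, filled where the adjusted p is under 0.05. In TPA, STAT response genes and the members lie mostly left of 0 for EVI1-labelled against empty vector cells, while JAK and STAT genes lie near 0.

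Promoter windows were found for 8 of the 10 genes, 11 windows in all because 3 genes have 2 start sites. The GAGGAA core occurred in 7 of the 11, against 27.9% of 34943 RefSeq promoter windows of the same length, and the AP-1 motif in 2, against 7.72%. The GAGGAA core was found also in the window of FLT3, which did not pass, and in 1 of the 2 windows of CSF3R, which fell. The window of IL4R, which rose, had no match to either motif. AP-1 and GAGGAA matches did not overlap each other in any window. A match is a description of the letters and not a bound site.

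**Figure D5:**
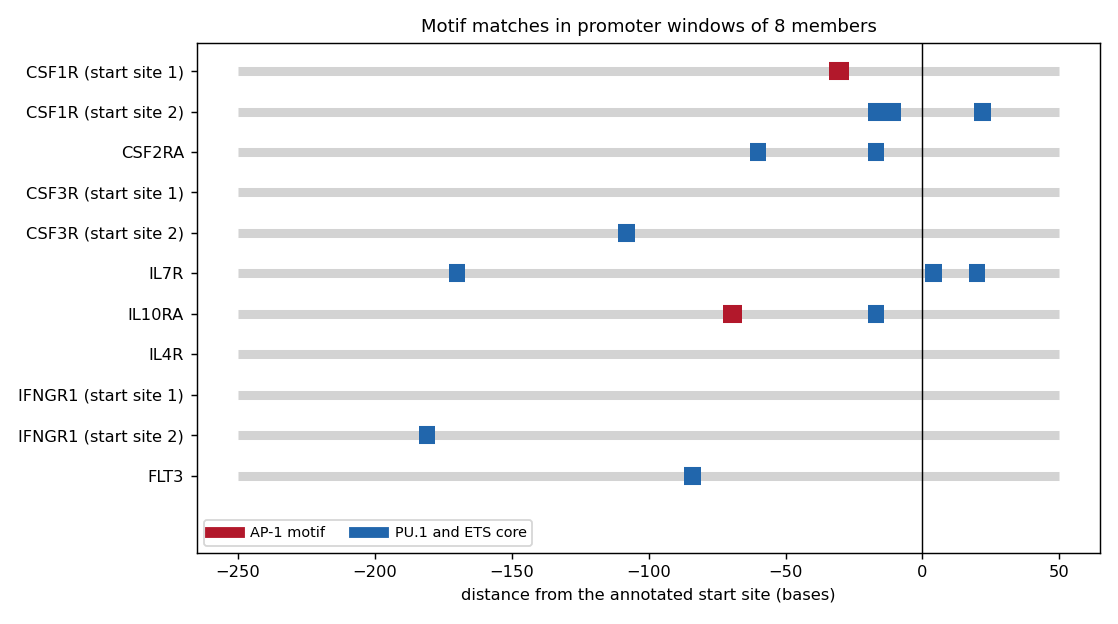
Matches to the AP-1 motif (red) and to the PU.1 and ETS core (blue) in the 11 promoter windows of 8 members, by distance in bases from the annotated start site, which is counted as 0. Windows run from 250 bases before the start site to 50 after it. AP-1 matches lie in the first CSF1R window and in that of IL10RA.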

How the data were processed

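Total RNA, 250 ng per sample, was labelled by 3' in vitro transcription and hybridised to 12 Affymetrix arrays, per the labels' protocols. Deposited values are RMA signals on a log2 scale. The submitters' processing notes name Expression Console 1.3 for this step. RMA corrects background, equalises arrays and summarises the probes of a set, which compresses differences of dim genes. No source used here says whether all 12 arrays went through it in a single run. Array medians were 5.07 to 5.11.

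Of 54675 probe sets, 62 were controls and 41091 named 1 gene. The brightest was kept for each of 19775 genes. limma 3.58.1 in R 4.3.3 was fitted with 1 mean per group over all 12 arrays and empirical Bayes moderation. Tests were two-sided with Benjamini-Hochberg adjustment over all genes at 0.05. The number of arrays limits the precision: median standard errors were 0.11 between groups and 0.15 for differences in response. The fit was checked on simulated data.

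The members, lists, motifs and rule for named genes were chosen with earlier results of these data known. All members are named. Of each list and comparison, at most 2 raised and 2 lowered genes with the largest changes are named, and, per member, the 2 genes with the smallest root mean square difference over 4 centred group means among genes whose highest group mean exceeded 6.12. Markers and group levels were named as checks, also outside this rule. Listed genes without a single-gene probe set were not analysed here.

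Replicate numbers are shared by the groups. Same-numbered arrays correlated in their deviations from group means at 0.415, 0.130 and 0.151 between the populations in TPA, above 0.1 for each number, and in no other comparison did all 3 pass 0.1. The lowest values there were 0.091 for TPA in EVI1-labelled cells, 0.079 for TPA in empty vector cells and 0.075 between the populations in ethanol. By this check, which uses the data alone, pairing was taken to hold in TPA between the populations. So narrow a miss of the cutoff cannot show that the numbers do not pair the arrays elsewhere. All values given come from the fit without a block, and the block, run as an alternative, changed no call of the 10 genes between the populations in TPA. The alternatives changed the probe set per gene, the filter on dim genes, the arrays fitted, the scaling, the prior variance, the replicate block and the arrays left out. Sequences are from RefSeq on GRCh38.p14.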

Additional observations from a re-analysis of the deposited data

Results flagged for a closer look

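No member differed between the populations in its response to TPA past the threshold, and 4 other pathway genes did so by the test of the difference in response, EVI1-labelled minus empty vector. OSM stood at -1.97 ± 0.20 (SE, limma adjusted p = 0.000264) and PIM1 at -1.07 ± 0.13 (adjusted p = 0.000724). With its probe sets averaged OSM stood at -1.25. Both kept their calls under every alternative run, with adjusted p up to 0.0017 and 0.0038. In ethanol PIM1 was already higher in EVI1-labelled cells, at 8.35 against 7.73 (0.62 ± 0.09, adjusted p = 0.00118). In TPA it averaged 10.04 against 10.48, so its difference in response includes a difference present without TPA. KIT stood at -0.90 ± 0.20 (adjusted p = 0.0342), with 3 of its 4 group means under 5.07, so that the size of this difference is uncertain, and lost the call without any 1 of 8 arrays (adjusted p up to 0.0931). SOCS4, a feedback inhibitor gene, stood at 0.57 ± 0.12 (adjusted p = 0.0234), and lost the call without any 1 of 7 arrays and with its probe sets averaged (0.22, adjusted p = 0.563).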

How the results depend on the processing

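Over 10 genes, 5 comparisons and the alternatives run, 961 of 985 results kept their direction and side of the threshold. With only the compared groups fitted, CSF2RB and IFNGR1 lost their difference in TPA (adjusted p = 0.0516 and 0.0644). Leaving out 1 array ended the call of IL4R in TPA and made that of IL10RA with TPA in EVI1-labelled cells, as given above. The replicate block raised the ethanol count to 1 gene, CSF3R (adjusted p = 0.0431), and the count of different TPA responses to 1, IL10RA (adjusted p = 0.0314). It changed no other call of the 10 genes. Averaging a gene's probe sets raised the count of different responses to 1, IL7R, and leaving out arrays moved it between 0 and 3. Values that turned sign had not passed the test in either setting. With probe sets averaged these were CSF1 at 0.00 in TPA, 0.0075 in ethanol and -0.0075 for the difference in response. With single arrays left out, CSF1 ran from -0.03 to 0.06 and FLT3 from -0.052 to 0.26 between populations in TPA, IL4R from -0.14 to 0.04 and FLT3 from -0.16 to 0.21 in ethanol, and FLT3 from -0.13 to 0.25 for the difference in response. The filter on dim genes left FLT3 out. Among 907 results for 46 called differences of list genes named by rule, 861 kept their call and 46 lost it. The cause of these changes was not tested. The 3 arrays per group and signals near 5.07 limit what could be detected for FLT3 and for IL7R in ethanol.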
